A study of Mus musculus with 18 samples.

Results

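The response of MHCII+CD11c- macrophages of the synovium to circulating immune complexes (IC) was measured in 6 bulk RNA-seq libraries, 3 with IC and 3 without treatment, out of 18 libraries in the series. The 6 were taken by their sample titles alone, so no measured value entered the choice, and all expressed genes are described. All mice were wild-type, C57BL/6 in the labels and C57BL/6J by the study's methods, of both sexes and, by the study's general rule for animal experiments, 8 to 20 weeks old. IC were made of ovalbumin and rabbit antibody against it and given intravenously, and the knee synovium was digested and sorted 8 h later. Untreated mice received no IC and are called healthy in the labels. Each library held MHCII+CD11c- cells of 6 legs pooled from 3 mice, so the p-values below measure the spread between pools and not between single animals. That spread was estimated with all 18 libraries of the series, since each group had only 3. The cells were gated on MHCII and CD11c protein, and a change in their RNA cannot be told apart from a change in which cells passed the gate. The other 12 libraries held LYVE1+CX3CR1+ and MHCII+CD11c+ macrophages, each with and without IC.

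MHCII+CD11c- macrophages lie in the sublining of the synovium, along its vessels, and present antigen on class II molecules. IgG in an IC binds Fcγ receptors on macrophages. The activating receptors signal through an ITAM, which SRC-family kinases such as FGR phosphorylate, and FcγRIIb opposes them. The cell takes up the IC, and cytokine, chemokine and interferon-induced genes are among those that can follow.

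The depth of the 2 groups differed. The untreated libraries held 882944, 837439 and 985186 counts in all, and the IC libraries 381217, 245903 and 973951. IC libraries 1 and 2 were the shallow ones. A single count stood for 2.61 and 3.77 CPM (counts scaled to a common library total, with edgeR's TMM factors) in them, against 1.001 to 1.22 in the other 4, and 10666 and 9700 genes had a count in them, against 11849 to 12171. A gene near a few CPM could be at 0 there from counting alone. Where a gene had no more than 3 counts over a group, a bound or an interval is given in place of a fold change. Intervals cover counting error only. IC library 2 also differed from the other IC libraries in several abundant transcripts. Malat1, a transcript kept in the nucleus, was at 11551 to 13547 CPM in untreated libraries, and IC library 2 lay within that range at 12644 CPM while IC libraries 1 and 3 lay below it at 5452 and 5449.8 CPM. The macrophage growth factor receptor gene Csf1r was at 2224 to 2678 CPM in untreated libraries and at 2068 and 2202 CPM in IC libraries 1 and 3, and IC library 2 was the low one at 746 CPM. For some genes, results are also given below without IC library 1, IC library 2 or both. Where they are not, a call may still have been lost without both.

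The libraries matched their label by its markers. H2-Ab1 and Cd74, which encode a class II chain and the invariant chain, stood at 2669.6 to 4745 CPM and at 1799.8 to 9794 CPM in the 6 libraries. Itgax, which encodes CD11c, was at 2.33, 2.44 and 13.3 CPM in untreated libraries 1, 2 and 3, against a mean of 269 CPM in untreated MHCII+CD11c+ macrophages. Adgre1, which encodes F4/80, was at 542 to 792 CPM. The lining marker Lyve1 was also present, at 702 to 882 CPM in untreated libraries and at 1841, 516 and 2290.3 CPM with IC. Of 11 T and NK cell markers in the files, 7 were at 0 in all 6 libraries, Cd3e, Cd3d, Cd3g, Cd8a, Gzma, Klrb1c and Ncr1.

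The quasi-likelihood test of edgeR, fitted to all 18 libraries with Benjamini-Hochberg adjusted p-values, tested 10550 genes and called 112 of them (1.06%) at an adjusted p of 0.05. Of these, 58 rose (0.55% of genes tested) and 54 fell (0.512%), and all adjusted p-values below come from this fit unless another is named. Counts of called list members below are to be read beside these shares. The values of the IC and untreated libraries did not overlap for 110 of the 112 genes, against 14.2% of all genes tested. The calls came from these same libraries, so this is no separate support for them. The change was over 2-fold for 48 of the genes that rose and 38 of those that fell. An unadjusted p under 0.05 was reached by 1544 genes, and the median log2 fold change over all genes tested was -0.01. The 2 called genes whose groups overlapped were Ddx58, described with its values, and Nomo1, chosen after its values were seen. In 6 fits that each left out 1 of the 6 libraries, 31 of the 112 genes were called every time and all 112 kept their direction. A kept direction, here and below, is no separate support, since groups that do not overlap nearly fix it in advance. Without both shallow IC libraries, which leaves 1 IC library that is assumed to vary like the other groups, 54 genes were called, 33 of the 112 among them, and all 112 kept their direction.

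**Figure D1:**
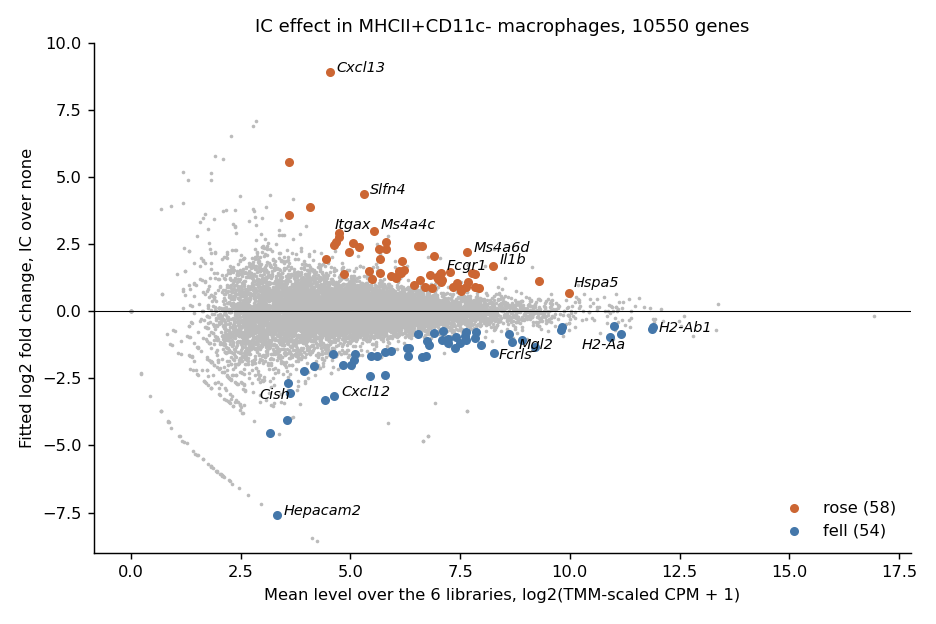
Each point is 1 of the genes tested, with its mean level over the 6 libraries as log2(CPM + 1) on the horizontal axis and the fitted log2 fold change (IC against untreated MHCII+CD11c- macrophages) on the vertical axis. The 58 genes that rose and the 54 that fell are coloured, and the fitted values of genes without counts in a group depend on the prior count and are no measure of size.

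Fc receptors are where an IC meets the macrophage, and 1 of their genes changed. Of the 7 IgG Fc receptor genes tested, 1 rose and the other 6 (Fcgr2b, Fcgr3, Fcgr4, Fcer1g, Fcgrt and Trim21) did not pass, with log2 fold changes from -0.49 to 1.13 and a list median of 0.35. Over all genes tested 0.55% rose. Fcgr1, which encodes the high-affinity activating receptor CD64, stood at 65.1, 89.2 and 89.9 CPM in untreated libraries and at 193, 245 and 133 CPM with IC. All 3 IC libraries lay above all 3 untreated ones (log2 fold change 1.18, SE 0.22, adjusted p = 0.00685). It was called in each fit that left out 1 library, but not without both shallow ones (log2 fold change 0.72, adjusted p = 0.201, the highest over its alternatives, which began at 0.000132). The inhibitory Fcgr2b was at 388, 361 and 459 CPM without and 557, 407 and 569 CPM with IC, values that overlapped (log2 fold change 0.35, SE 0.16, adjusted p = 0.312). The genes Fcgr2b, Fcgr3 and Fcgr4 are alike in sequence, and how reads matching several genes were counted is not given in the sources used here.

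Downstream of the receptors, the 24 tested Fc receptor signalling genes had a median of -0.05. Among them Fgr, a SRC-family kinase, rose from 67.4, 26.9 and 41.9 CPM to 264, 147 and 164 CPM. The groups were well apart, and the log2 fold change of 2.07 (SE 0.29, adjusted p = 0.00104) was called in every alternative that was run.

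Of 28 tested scavenger and uptake receptor genes, 2 rose, Msr1 and Clec4e, beside 0.55% of all genes tested. In this list 1, the lectin gene Mgl2, fell, beside 0.512%, and the list median was 0.04. Msr1, the class A scavenger receptor, was at 61.6, 99.0 and 81.7 CPM untreated and at 225, 249 and 203 CPM with IC. Each IC library held over 2-fold the level of any untreated one (log2 fold change 1.47, SE 0.22, adjusted p = 0.00104), and the gene was called in all alternatives. Clec4e, which encodes the FcRγ-coupled lectin Mincle, stood at 32.6, 33.0 and 16.3 CPM against 102, 48.9 and 65.1 CPM (log2 fold change 1.42, SE 0.34, adjusted p = 0.0364). It was called only in the fits without IC library 2 or 3 and lost in the other 4 (adjusted p = 0.0528 to 0.14, and 0.0068 to 0.267 over all alternatives).

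The Ms4a genes, which encode 4-span membrane proteins and lie together on chromosome 19, were mostly higher with IC. Of the 6 tested, 3 rose and 5 had a fitted value above 0, with a median log2 fold change of 1.15. Ms4a6d (chromosome 19 from 11586606 to 11604804 of GRCm38) had the lowest adjusted p of all genes. It stood at 63.9, 67.2 and 77.6 CPM in untreated libraries and at 350.4, 395 and 242 CPM with IC, so that the lowest IC library was over 3-fold above the highest untreated one (log2 fold change 2.21, SE 0.23, adjusted p = 5.73e-06). Ms4a6c was at 112, 126 and 113 CPM against 395, 339 and 220.3 CPM (1.42, SE 0.23, adjusted p = 0.00125). Ms4a4c was at 8.14, 9.78 and 11.2 CPM against 60.1, 132 and 51.1 CPM (2.98, SE 0.47, adjusted p = 0.00125). The groups of all 3 genes were apart, and each was called in the 6 fits without 1 library. With both shallow IC libraries left out, the log2 fold changes were 1.81 for Ms4a6d, 0.93 for Ms4a6c and 2.39 for Ms4a4c. Ms4a6c was not called there. Reads of these genes and of Ms4a6b may be shared between near-identical stretches.

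Ms4a4c is also on the list of monocyte markers, of which 12 were tested, 11 had a fitted value above 0 and 2, Ms4a4c and Plac8, rose. The median log2 fold change of the list was 1.71, an unadjusted p under 0.05 was reached by 9 of its genes, and 6 had IC libraries all above the untreated ones, against 5.68% of all genes tested. The summed level of the monocyte list was 2836 to 3363 CPM in untreated libraries and 3617 to 3985 CPM with IC. Plac8 varied widely, from 60.5, 3.67 and 24.5 CPM to 94.1, 316 and 91.1 CPM (log2 fold change 2.42, SE 0.57, adjusted p = 0.0355), and was not called without untreated library 2 or 3 or IC library 2 (adjusted p = 0.111 to 0.154, and 2.35e-09 to 0.306 over all alternatives). The defining marker Ly6c2 was at 12.8, 6.11 and 3.06 CPM untreated and 23.5, 22.6 and 26.0 CPM with IC (adjusted p = 0.318), and Ccr2 overlapped, at 527 to 601 CPM and 207 to 606 CPM. The part of such cells in these results was not tested, and in bulk libraries more cells of a type and more RNA per cell cannot be told apart.

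**Figure D2:**
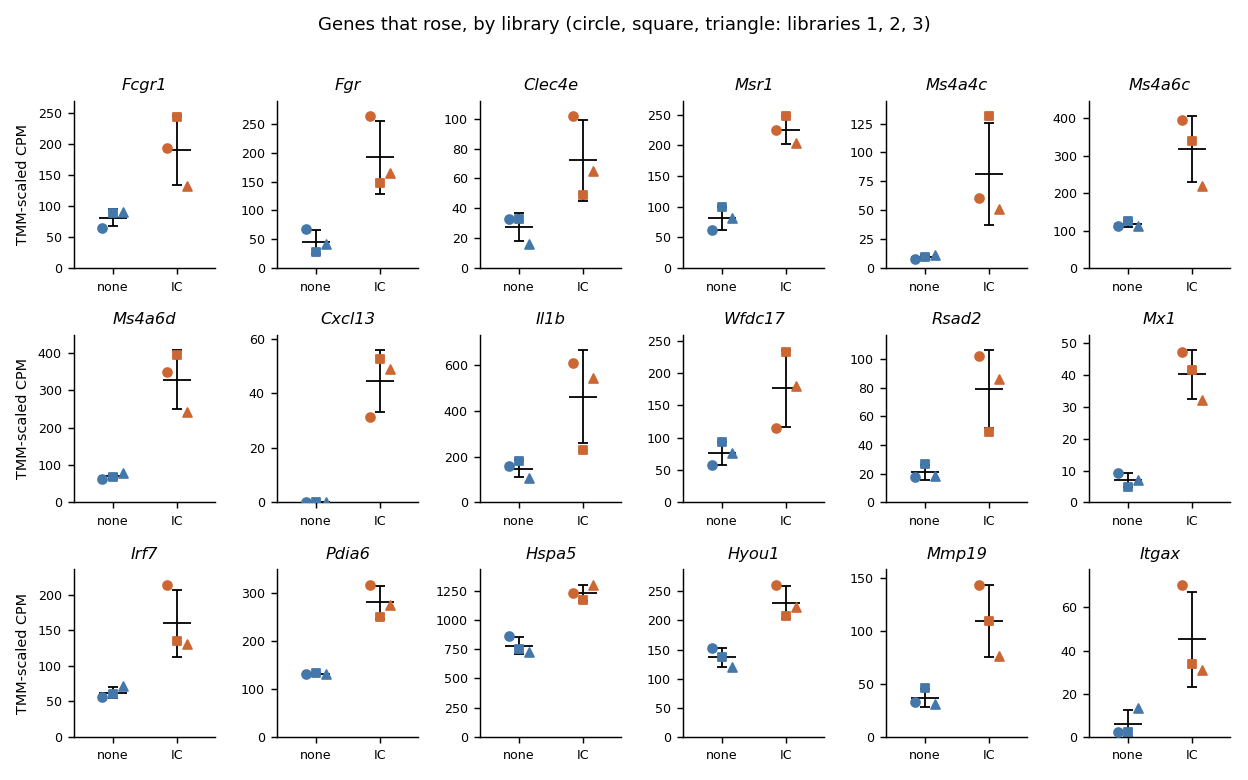
CPM of genes that rose with IC, 1 panel a gene, with each library as a point and the mean and SD of the 3 libraries a group as bars. The vertical axes start at 0, and each IC point of Fcgr1, Fgr, Msr1 and Ms4a6d lies above the untreated points.

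Of the 21 chemokine genes tested, 1 rose and 1 fell, beside 0.55% and 0.512% of all genes tested, and 19 did not pass. The list median was 0.15. Cxcl13, the B cell attracting chemokine, had no count in any untreated library and stood at 31.4, 52.7 and 49.1 CPM in IC libraries. Set against 3 counts over the untreated group it was at least 40.3-fold higher with IC (adjusted p = 0.00105), and it was called in every alternative that kept the gene. Cxcl12, which retains CXCR4+ cells, ran the other way, from 52.3, 45.2 and 31.7 CPM to 0, 7.53 and 6.01 CPM (log2 fold change -3.17, SE 0.77, adjusted p = 0.0401). Although its groups were apart, it was called only in the fit without IC library 2 and in none of the other 5 that left out a library (adjusted p = 0.0602 to 0.112, and 0.00107 to 0.197 over all alternatives). The neutrophil chemokine gene Cxcl1 was at 14.0, 17.1 and 49.0 CPM without and 102, 11.3 and 107 CPM with IC. The second IC library lay below all untreated ones, and the log2 fold change of 1.55 did not pass (SE 0.50, adjusted p = 0.134).

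Among inflammatory cytokine and feedback genes 3 of 39 rose, Il1b, Wfdc17 and the Clec4e given above, and 30 of the 39 had a fitted value above 0 (median 0.39). Il1b was at 159, 179.7 and 105 CPM untreated and at 612, 229.7 and 545 CPM with IC. The shallowest library lay closest to the untreated group (log2 fold change 1.67, SE 0.34, adjusted p = 0.0121). Without both shallow libraries it was 1.90 (adjusted p = 0.0192), and it missed the threshold without untreated library 3 or IC library 1 (adjusted p = 0.0744 and 0.0708, and 2.94e-13 to 0.0744 over all alternatives). Wfdc17, a small secreted protein of the whey acidic protein family, was at 58.1, 92.9 and 76.6 CPM against 115, 233 and 180.3 CPM (log2 fold change 1.2, SE 0.25, adjusted p = 0.0122), and lost the call without untreated library 1 or 3 (adjusted p = 0.063 and 0.0509, and 6.18e-05 to 0.148 over all).

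Activation genes outside this list were among the largest rises. Ikbke, which encodes a kinase of the interferon and NF-κB pathways, was at 11.6, 8.56 and 7.15 CPM against 34.0, 90.4 and 42.1 CPM (log2 fold change 2.53, SE 0.55, adjusted p = 0.0194). It lost the call without untreated library 2 or 3 or IC library 2 (adjusted p = 0.0601 to 0.0759, and 0.000284 to 0.135 over all). Irg1, which makes itaconate in activated macrophages, was at 14.0, 7.33 and 27.6 CPM against 75.8, 45.2 and 159 CPM (2.58, SE 0.52, adjusted p = 0.0115), and lost it without untreated library 2 or IC library 3 (adjusted p = 0.0628 and 0.0987, and 3.96e-09 to 0.0987 over all). Of the 10 tested neutrophil markers 9 had a fitted value above 0 (median 0.86), with a summed level over the list of 921 to 2116 CPM untreated and 1574 to 4546 CPM with IC, and their part in these results was not tested.

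Interferon-induced genes were mostly higher with IC. Of 53 tested, 5 rose (Ly6a, Mx1, Rsad2, Irf7 and Ddx58), 43 had a fitted value above 0 and 19 had IC libraries all above the untreated ones, again beside 5.68% of all genes tested. The list median was 0.47. Rsad2, which encodes the antiviral enzyme viperin, was at 17.4, 26.9 and 18.4 CPM untreated and at 102, 48.9 and 86.1 CPM with IC (log2 fold change 1.96, SE 0.40, adjusted p = 0.0124). Irf7, a transcription factor that amplifies type I interferon, was at 55.8, 59.9 and 71.5 CPM against 214, 136 and 130.2 CPM (1.34, SE 0.32, adjusted p = 0.0355). Mx1, a GTPase that blocks viruses, was at 9.30, 4.89 and 7.15 CPM against 47.1, 41.4 and 32.05 CPM (2.45, SE 0.52, adjusted p = 0.0164).

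The groups of these 3 genes did not overlap, while Ddx58, which encodes the RNA sensor RIG-I, did (38.4, 29.3 and 51.1 CPM against 112, 41.4 and 116 CPM; 1.24, SE 0.31, adjusted p = 0.0449). Ly6a was at 2.33, 3.67 and 0 CPM untreated and 39.2, 22.6 and 27.0 CPM with IC (3.89, SE 0.78, adjusted p = 0.0119). None of the 5 was called in all 6 fits without 1 library. The call was lost for Ly6a without untreated library 3 (adjusted p = 0.0582), for Rsad2 without untreated library 1 or 3 or IC library 1 (0.0528 to 0.0661) and for Mx1 without untreated library 2 or 3 or IC library 1 (0.0602 to 0.0712). It was lost for Irf7 without any 1 untreated library or IC library 1 (0.0666 to 0.141) and for Ddx58 in all but the fit without IC library 2 (0.0569 to 0.161). Over all alternatives the highest adjusted p-values were 0.0804 for Ly6a, 0.0661 for Rsad2, 0.138 for Mx1, 0.236 for Irf7 and 0.337 for Ddx58, and DESeq2 called all 5.

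Chaperones of the endoplasmic reticulum (ER) fold secreted proteins and are induced by the unfolded protein response. Of 41 tested ER genes 3 rose, Pdia6, Hspa5 and Hyou1, and the other 38 did not pass. The fitted value was above 0 for 31 of the 41 and below 0 for 10 (median 0.23). The stretches before the start sites of Pdia6 and Hspa5, where the factors ATF6 and XBP1 are known to act on such genes, are shown with that of Rsad2 because they hold the element searched for. They are the 150 bases before the start site in RefSeq's GRCm38.p6, read 5′ to 3′ on the gene's strand, at chr12:17266439-17266588 (plus strand) for Pdia6, chr2:34771940-34772089 (plus) for Hspa5 and chr12:26456453-26456602 (minus) for Rsad2. Capitals mark the ER stress element (CCAAT, 9 bases of any kind and CCACG) in the first 2 and the interferon element (GAAA, 2 bases of any kind and GAAA), read on the other strand, in Rsad2.

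Pdia6: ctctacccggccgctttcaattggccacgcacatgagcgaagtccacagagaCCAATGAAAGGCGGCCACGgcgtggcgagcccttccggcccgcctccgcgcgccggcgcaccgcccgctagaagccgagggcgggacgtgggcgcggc

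Hspa5: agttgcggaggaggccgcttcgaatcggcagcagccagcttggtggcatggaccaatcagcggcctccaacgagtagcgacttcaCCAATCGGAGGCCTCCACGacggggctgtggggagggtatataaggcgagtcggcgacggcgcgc

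Rsad2: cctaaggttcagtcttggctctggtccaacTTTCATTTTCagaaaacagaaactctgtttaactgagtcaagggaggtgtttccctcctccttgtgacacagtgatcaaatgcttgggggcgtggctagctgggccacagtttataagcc

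The ER stress element began 98 bases before the start site of Pdia6 and 65 bases before that of Hspa5. Searched on both strands of windows of 300 bases, it was in 0.119% of all 32851 promoter windows, and the interferon element, 120 bases before the start site of Rsad2, in 3.44%. Of 31 tested ER genes with a window 8 (25.8%) held the ER stress element, among them Calr, Canx, Creld2, Dnajc3, Hsp90b1 and Syvn1, which did not pass. The interferon element was in 23 of 38 tested interferon-induced genes with a window (60.5%). Over all 8012 tested genes with a window, 0.15% held the ER stress element and 4.01% the interferon element. Such a match is a description of the sequence and no measure of binding. Irf7 held no such element in its window, and windows were matched for 39 of the 58 genes that rose and 41 of the 54 that fell, too few for a share over either group.

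Pdia6, a disulfide isomerase, was at 131, 133 and 129.7 CPM in untreated libraries and at 316, 249 and 273 CPM with IC. The untreated values were nearly equal and all IC values lay well above them (log2 fold change 1.09, SE 0.17, adjusted p = 0.00125), also in the fit without both shallow libraries (1.07, adjusted p = 0.0163; 7.5e-08 to 0.0714 over all alternatives). Hspa5, which encodes the chaperone BiP, was at 866, 751 and 727 CPM against 1229, 1167 and 1303 CPM (0.66, SE 0.15, adjusted p = 0.0316). Hyou1, its nucleotide exchange factor, was at 152, 137 and 121 CPM against 261, 207 and 223 CPM (0.76, SE 0.18, adjusted p = 0.0367). Both were apart between groups but lost the call without untreated library 2 or 3 or IC library 1 or 3 (adjusted p = 0.0725 to 0.119 and 0.0609 to 0.128; 0.000331 to 0.273 and 0.00349 to 0.328 over all alternatives). Cytosolic heat shock protein genes, which answer misfolding outside the ER, had a median of 0.42 over 21 genes, 8 of them with all IC libraries above the untreated ones, beside 5.68% of all genes tested. edgeR called 0 of them (9 at an unadjusted p under 0.05) and DESeq2 1.

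Genes of class II chains and of H2-DM were among those that fell. Of 13 tested class II presentation genes 5 fell, H2-Aa, H2-Ab1, H2-Eb1, H2-DMa and H2-DMb1, and the other 8 did not pass. The fitted value was below 0 for 8 of the 13 and above 0 for 5, and 7 had IC libraries all below the untreated ones, against 8.56% of all genes tested. The list median was -0.68. The 5 genes lie within 1 stretch of chromosome 17, from 34119693 (H2-DMa) to 34316674 (H2-Eb1) of GRCm38. H2-Aa, an alpha chain of the surface class II molecule, was at 2956, 2828 and 3067 CPM in untreated libraries and at 1875, 1386 and 1665 CPM with IC. The groups were far apart relative to their spread (log2 fold change -0.84, SE 0.14, adjusted p = 0.00212). H2-Ab1, the beta chain that pairs with it, was at 4745, 4585 and 4548 CPM against 3088, 2669.6 and 2926 CPM (-0.68, SE 0.16, adjusted p = 0.0364), and H2-Eb1 was at 2680.0, 2428 and 2516 CPM against 1577, 934 and 1409 CPM (-0.95, SE 0.21, adjusted p = 0.0188).

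The subunits of H2-DM, which exchanges the invariant chain peptide for antigen, fell with them. H2-DMa went from 308, 255 and 241 CPM to 141, 132 and 112 CPM (-1.08, SE 0.22, adjusted p = 0.0119) and H2-DMb1 from 294, 222 and 248 CPM to 144, 147 and 116 CPM (-0.94, SE 0.19, adjusted p = 0.0114). All 3 IC libraries, the deep one included, were below the untreated ones for both genes. H2-Aa, H2-DMa and H2-DMb1 were called in all 6 fits without 1 library. H2-Ab1 lost the call without any 1 untreated library or IC library 1 (adjusted p = 0.0676 to 0.0833, and 1.03e-05 to 0.267 over all alternatives), and H2-Eb1 without any 1 untreated library (0.0512 to 0.0602, and 2.29e-07 to 0.115 over all). Without both shallow libraries the fold changes of H2-Aa (-0.81, adjusted p = 0.0168; 6e-09 to 0.133 over all) and H2-DMb1 (-1.12, adjusted p = 0.0338; 0.000448 to 0.187) passed, and those of H2-DMa (-1.24, adjusted p = 0.0533), H2-Ab1 (-0.65, 0.144) and H2-Eb1 (-0.84, 0.115) did not.

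Cd74 was at 9794, 9264 and 9161 CPM in untreated and at 6772, 1799.8 and 6107 CPM in IC libraries. Its groups were apart, yet IC library 2 lay so far below the other 2 that the log2 fold change of -0.94 had an SE of 0.42 and did not pass (adjusted p = 0.297). Ciita, the master regulator of class II transcription, was at 215, 167 and 129 CPM against 105, 113 and 94.1 CPM (-0.73, adjusted p = 0.148). In contrast to class II, the 20 tested class I presentation genes had a median of -0.15, and edgeR called 0 of them (3 at an unadjusted p under 0.05) and DESeq2 1.

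Some genes associated with IL-4 activated macrophages and with dendritic cells fell with class II. On the IL-4 list 1 of 22 tested genes rose (Tgm2) and 3 fell (Mgl2, Cd209a and Cish), with a median of -0.11. Mgl2, which encodes the lectin CD301b, was at 489, 615 and 589 CPM without and 275, 211 and 265 CPM with IC (log2 fold change -1.16, SE 0.24, adjusted p = 0.0128). It lost the call without untreated library 2 or 3 (adjusted p = 0.0557 and 0.0569, and 1.19e-06 to 0.14 over all alternatives). Cd209a, also a dendritic cell marker, was at 47.7, 59.9 and 86.8 CPM against 7.84, 37.7 and 20.0 CPM (-1.68, SE 0.40, adjusted p = 0.0364), and was called only in the fits without untreated library 1 or IC library 2 (0.0667 to 0.124 in the other 4, and 0.000346 to 0.276 over all). Of 9 tested dendritic cell markers 7 had a fitted value below 0. The median was -1.68, and -0.53 when genes without counts in a group were set to their bounds. The summed level of the list was 203 to 213 CPM untreated and 123 to 176 CPM with IC, and its part in these results was not tested.

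**Figure D3:**
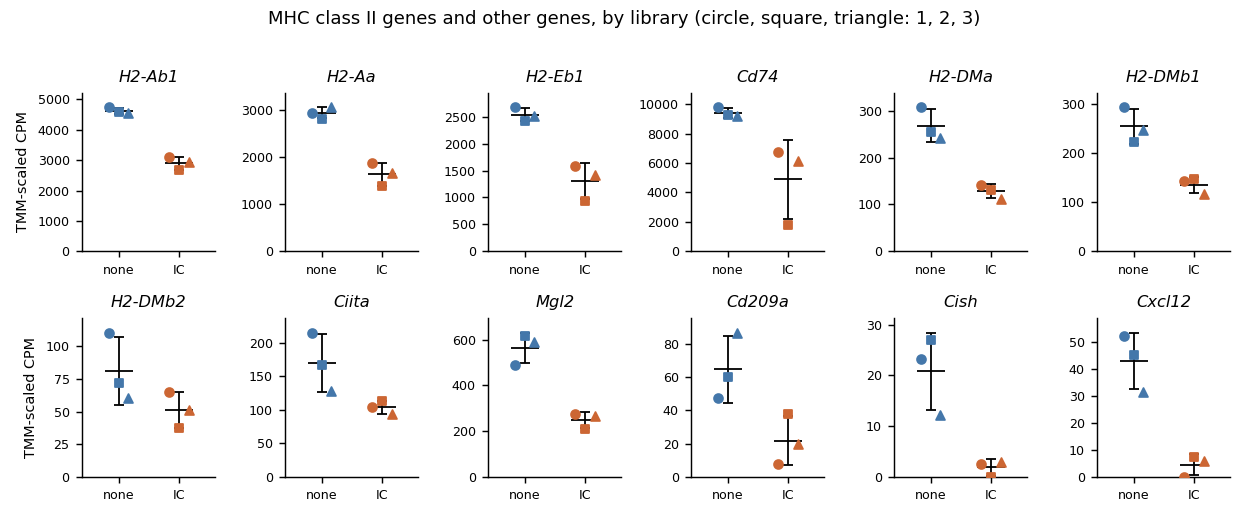
CPM of class II genes and of others that fell with IC, 1 panel a gene, where Cd74, H2-DMb2 and Ciita did not pass the test, with each library as a point and the mean and SD of the 3 libraries a group as bars. Axes start at 0, and IC library 2 (square) stands below the other IC libraries most clearly for Cd74.

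Protease genes were among those that rose. Of 26 tested matrix genes, 19 had a fitted value above 0 (median 0.41), and those that rose included Mmp14 and Mmp19. Mmp19, a matrix metalloproteinase, was at 32.6, 46.5 and 30.6 CPM against 144, 109 and 76.1 CPM (log2 fold change 1.54, SE 0.33, adjusted p = 0.0183). It lost the call without untreated library 1 or 3 or IC library 1 (adjusted p = 0.0638 to 0.103, and 5.92e-06 to 0.286 over all). Mmp14, the membrane-type protease that activates MMP2, was at 24.4, 4.89 and 25.5 CPM against 175, 30.1 and 72.1 CPM (2.32, SE 0.56, adjusted p = 0.0381), and was called only without IC library 2 or 3 (0.0644 to 0.185 in the other 4 fits, and 2.11e-07 to 0.185 over all).

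Itgax, which encodes the CD11c that the gate excluded, rose as RNA from 2.33, 2.44 and 13.3 CPM to 70.6, 33.9 and 31.0 CPM (log2 fold change 2.75, SE 0.63, adjusted p = 0.0261). Even the highest IC library was far below the 269 CPM mean of untreated MHCII+CD11c+ macrophages. The call was lost without untreated library 1 or 2 or IC library 1 (adjusted p = 0.0899 to 0.117) and without both shallow libraries (0.176, the highest over its alternatives, which began at 2.1e-09). The list of CD11c+ macrophage markers had a summed level of 290 to 346 CPM untreated and 305 to 473 CPM with IC.

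Single genes of lipid handling, glucocorticoid response and complement changed. Of 18 tested genes of LXR targets and lipid efflux 2 rose, Nr1h3 and Tgm2, and 1, Abca9, fell (median 0.10). Over all genes tested 0.55% rose and 0.512% fell. Nr1h3, which encodes the oxysterol receptor LXRα, was at 11.6, 18.3 and 16.3 CPM against 60.1, 151 and 39.1 CPM (log2 fold change 2.30, SE 0.50, adjusted p = 0.0188). It owed much to IC library 2, without which it was 1.62 (adjusted p = 0.083), and it also missed the threshold without any 1 untreated library (0.0512 to 0.0706; 3.15e-06 to 0.299 over all alternatives). Tgm2, a transglutaminase gene also on the IL-4 list, was at 123, 109 and 151 CPM against 353, 282 and 353 CPM (1.37, SE 0.30, adjusted p = 0.0195), and was called only in the fit without IC library 2 (0.05 to 0.0965 in the other 5, and 1.54e-08 to 0.0965 over all). Abca9, a membrane transporter gene, fell from 487, 491 and 522 CPM to 288, 294 and 247 CPM (-0.87, SE 0.16, adjusted p = 0.0043) and was called in all 6 fits. Sgk1, a glucocorticoid-induced kinase, rose from 81.4, 64.8 and 71.5 CPM to 212, 154 and 211 CPM (1.43, SE 0.23, adjusted p = 0.00125) and was called in all alternatives, while the median of the 20 tested glucocorticoid targets was 0.05.

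Of 18 tested complement genes 2 rose, Cfb and Itgax, whose product CD11c is part of a complement receptor, and the list median was 0.16. Cfb, factor B of the alternative pathway, was at 89.5, 79.5 and 49.0 CPM against 311, 113 and 140.2 CPM (log2 fold change 1.37, SE 0.32, adjusted p = 0.033). Its rise was smallest without IC library 1 (0.83, adjusted p = 0.19), and the call was also lost without untreated library 2 or 3 (0.0772 and 0.131; 1.62e-05 to 0.218 over all alternatives). Of 60 lysosome genes 1 rose, the cathepsin gene Ctsl, from 164, 182 and 128 CPM to 259, 328 and 301 CPM (0.91, SE 0.17, adjusted p = 0.00829), which missed the threshold without untreated library 3 (0.0602; 1.44e-05 to 0.171 over all). The median of the lysosome list was 0.04, and over all genes tested 0.55% rose.

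Sterol synthesis and immediate early genes were lower by most members. The 32 tested sterol synthesis genes had a median of -0.43, 8 had a fitted value above 0 and 7 had all IC libraries below the untreated ones, beside 8.56% of all genes tested. edgeR called 0 of them (9 at an unadjusted p under 0.05) and DESeq2 2. Of 31 tested immediate early genes 1 fell, the antiproliferative gene Btg2, from 1152, 1160.1 and 970.5 CPM to 546, 832 and 646 CPM (log2 fold change -0.70, SE 0.16, adjusted p = 0.0237). It lost the call without untreated library 1 or 2 or IC library 1 (adjusted p = 0.0644 to 0.108, and 0.0004 to 0.376 over all alternatives). The list had a median of -0.29, and 13 members had all IC libraries below the untreated ones, beside the same 8.56%. The share of all genes tested that were called lower was 0.512%. For comparison, the 79 ribosomal protein genes had a median of -0.08 and the 75 nuclear-encoded respiratory chain genes 0.15. edgeR called 0 in both (8 and 10 at an unadjusted p under 0.05), and DESeq2 called 1 and 0. The lists of macrophage transcription factors (36 genes), cell cycle (36) and adhesion and migration receptors (35) had medians of -0.07, 0.08 and 0.13.

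**Figure D4:**
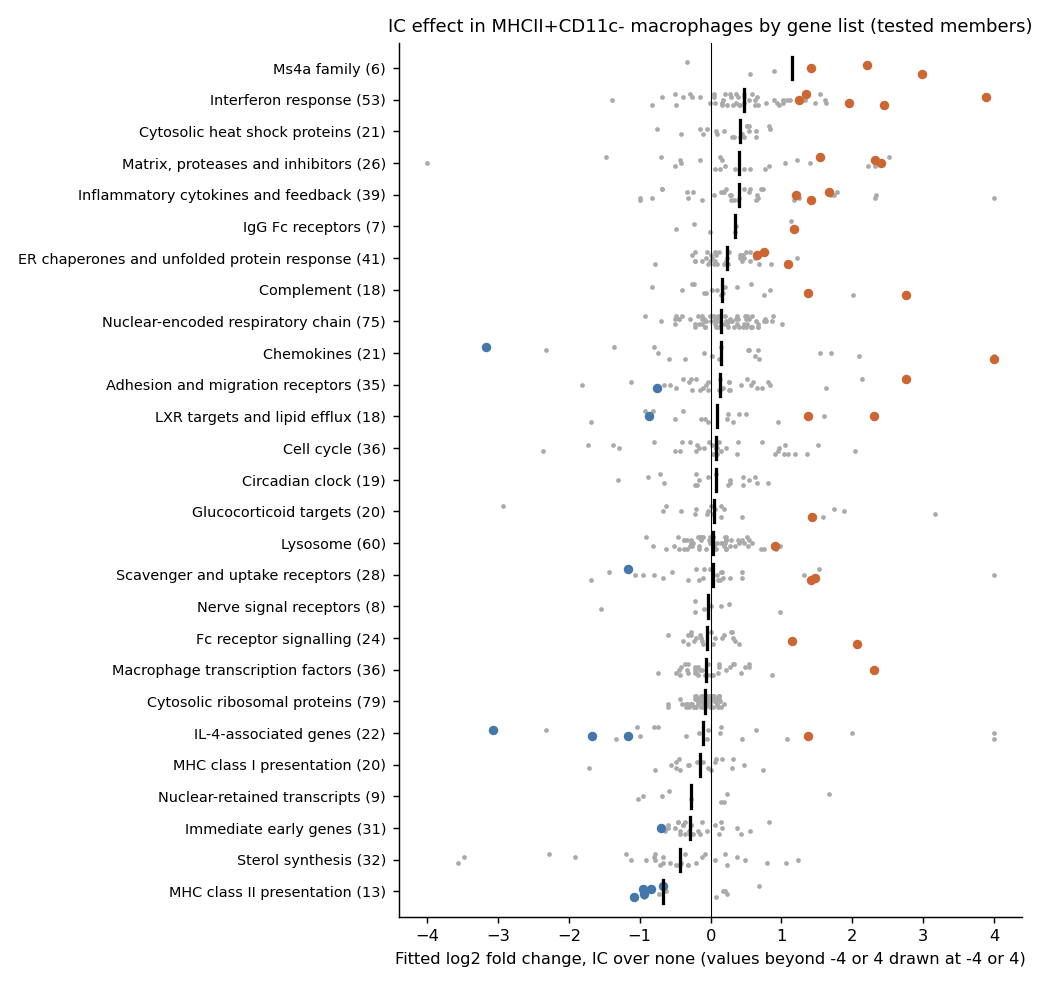
Log2 fold changes (IC against untreated MHCII+CD11c- macrophages) of the tested members of gene lists, 1 row a list, each point a gene, with the list median as a line and called genes coloured. Of the lists drawn the class II list sits lowest, with a median of -0.68, and the median of all genes tested is -0.01.

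The remaining genes with the largest changes belonged to no pathway list. Among those that rose, Ankrd33b, which encodes an ankyrin repeat protein, went from 3.49, 9.78 and 4.09 CPM to 36.6, 64.0 and 35.1 CPM (log2 fold change 2.91, SE 0.53, adjusted p = 0.00492). Memo1 went from 9.30, 11.0 and 11.2 CPM to 26.1, 79.1 and 46.1 CPM (2.20, SE 0.43, adjusted p = 0.00961). Slfn4, a schlafen gene of activated myeloid cells that was chosen after its values were seen, went from 2.33, 4.89 and 3.06 CPM to 47.1, 102 and 71.1 CPM (4.37, SE 0.68, adjusted p = 0.00125). The IC libraries of these 3 genes were all above the untreated ones, and each was called in the 6 fits without 1 library. With both shallow IC libraries left out, the log2 fold changes were 2.62 for Ankrd33b, 2.13 for Memo1 and 4.37 for Slfn4. By voom, Memo1 did not pass (adjusted p = 0.0761), while Ankrd33b and Slfn4 did.

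Among those that fell, Plxdc2 went from 108, 36.7 and 74.6 CPM to 15.7, 3.77 and 16.02 CPM (log2 fold change -2.43, SE 0.41, adjusted p = 0.00212) and Olfm1 from 159, 108 and 185 CPM to 52.3, 37.7 and 47.1 CPM (-1.70, SE 0.31, adjusted p = 0.00563). Nop58, a component of the particles that methylate ribosomal RNA, went from 44.2, 55.01 and 53.1 CPM to 20.9, 11.3 and 17.0 CPM (-1.58, SE 0.31, adjusted p = 0.0111). Their groups did not overlap, and all 3 were called in the 6 fits without 1 library. With both shallow IC libraries left out, none was called, at log2 fold changes of -2.18 for Plxdc2, -1.67 for Olfm1 and -1.56 for Nop58. By voom, Plxdc2 (adjusted p = 0.143) and Nop58 (0.0831) did not pass, while Olfm1 did. In edgeR with libraries thinned to the smallest total, Nop58 did not pass (adjusted p = 0.18), while Plxdc2 and Olfm1 did. Hepacam2 was at 17.4, 20.8 and 16.3 CPM in untreated libraries and had no count with IC. Set against 3 counts over the IC group it was 9.92-fold lower, and its 95% counting interval began at 7.76-fold (adjusted p = 0.00212). Sh3d19 had 2 counts over the IC group, and its level without IC was higher by a ratio with a 95% counting interval of 4.41 to 142.

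Aldh1a2, which makes retinoic acid, was at 169, 53.8 and 50.1 CPM without and 26.1, 11.3 and 15.02 CPM with IC (log2 fold change -2.38, SE 0.50, adjusted p = 0.0164), where untreated library 1 held over 3-fold the level of the other 2. Without that library it was -1.59 (adjusted p = 0.0946), and without IC library 3 it missed the threshold too (0.0756; 4.84e-09 to 0.304 over all alternatives). Fcrls, a macrophage receptor gene with Fc receptor-like domains, and Lyz1, a lysozyme gene, were both chosen after their values were seen. Fcrls fell from 512, 484 and 380.0 CPM to 152, 143 and 165 CPM (-1.56, SE 0.25, adjusted p = 0.00125), and Lyz1 from 1112, 810.5 and 638 CPM to 327, 282 and 382 CPM (-1.35, SE 0.23, adjusted p = 0.00218). All IC libraries of both genes were below the untreated ones. With both shallow IC libraries left out, the log2 fold changes were -1.46 for Fcrls and -1.15 for Lyz1, and neither was called. Lyz1 shares sequence with its neighbour Lyz2, so the split of reads between them is uncertain.

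The same comparison in the other subsets was made against their own untreated libraries. It called 49 genes in LYVE1+CX3CR1+ macrophages (0.464%; 0.246% higher and 0.218% lower) and 71 in MHCII+CD11c+ macrophages (0.673%; 0.483% higher and 0.19% lower), and of the 112 genes of MHCII+CD11c- macrophages 16 and 29 were among them. The fitted change had the same sign in LYVE1+CX3CR1+ macrophages for 100 of the 112 and in MHCII+CD11c+ macrophages for 104. A difference between subsets was tested as an interaction in the same fit. edgeR called 0 genes against LYVE1+CX3CR1+ macrophages (688 at an unadjusted p under 0.05; 13 by DESeq2) and 1 against MHCII+CD11c+ macrophages (0.00948% of genes tested; 642 at an unadjusted p under 0.05; 1 by DESeq2). Genes called in MHCII+CD11c- macrophages and not in another subset, such as Sgk1 and the class II genes, are therefore not shown to respond differently there.

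H2-Aa and H2-Ab1 came closest against LYVE1+CX3CR1+ macrophages. The log2 fold change of H2-Aa was lower by -1.82 (SE 0.35) in MHCII+CD11c- macrophages and that of H2-Ab1 by -1.45 (SE 0.26), both with an adjusted p of 0.107. In LYVE1+CX3CR1+ macrophages, which were sorted as MHCII-, these genes stood at only 3.07 and 20.2 CPM without and 6.11 and 34.6 CPM with IC. The other 3 class II genes that fell had differences of 0.12 for H2-Eb1 (SE 0.49, adjusted p = 0.985), -0.08 for H2-DMa (SE 0.40, adjusted p = 0.99) and -0.80 for H2-DMb1 (SE 0.31, adjusted p = 0.716). Their log2 fold changes in LYVE1+CX3CR1+ macrophages were -1.07, -1.001 and -0.14, none past the threshold, at untreated levels of 2.96, 18.5 and 14.8 CPM. In MHCII+CD11c+ macrophages the log2 fold changes of H2-Aa and H2-Ab1 were -0.37 and -0.18, neither past the threshold. Ms4a6d rose in all 3 subsets, by 2.21 here and by 1.90 and 1.77 in LYVE1+CX3CR1+ and MHCII+CD11c+ macrophages, and so did Fcgr1, by 1.18, 0.99 and 1.25.

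**Figure D5:**
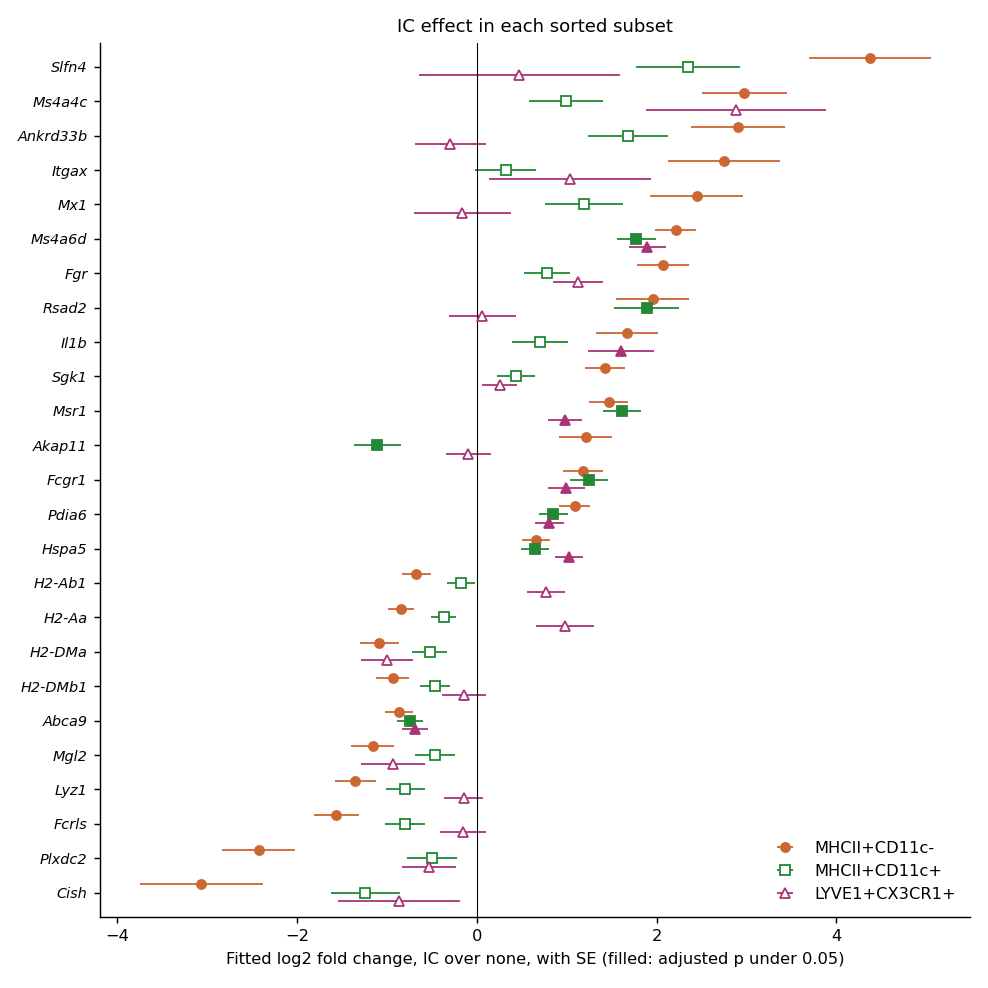
Log2 fold changes with IC, with SE bars, of selected genes in MHCII+CD11c-, LYVE1+CX3CR1+ and MHCII+CD11c+ macrophages, each against its own 3 untreated libraries. Ms4a6d and Fcgr1 are above 0 in each subset, and H2-Aa is below 0 in MHCII+CD11c- macrophages at -0.84.

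Other cell types were checked by their marker lists. The summed fibroblast list was at 108 to 123 CPM untreated and 70.1 to 237 CPM with IC, with Pdgfra, Thy1 and Cthrc1 at 0, and the endothelial list at 58.7 to 216 and 18.8 to 163 CPM. B cell markers summed to 204 to 302 and 235 to 354 CPM, T and NK cell markers to 7.33 to 25.6 and 7.53 to 11.0 CPM, and Schwann cell markers to 501 to 699 and 267 to 464 CPM. Lining macrophage markers summed to 2524 to 2590 CPM untreated and 2240 to 5084 CPM with IC. The 6 tested mast cell markers all had a fitted value above 0 (median 1.54), with a summed level of 6.11 to 214 CPM untreated and 119 to 531 CPM with IC over the list, and Hdc, outside the list and the histidine decarboxylase gene of mast cells and activated myeloid cells, rose from 25.6, 3.67 and 5.11 CPM to 49.7, 60.2 and 69.1 CPM (log2 fold change 2.40, SE 0.60, adjusted p = 0.0458). It kept this call only in the fit without untreated library 1 (adjusted p = 0.0523 to 0.16 in the other 5, and 0.000592 to 0.16 over all alternatives). Erythroid markers ranged from 23.2 to 2864 CPM untreated and from 40.1 to 152 CPM with IC. The part of these cell types in the results was not tested.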

How the data were processed

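The 18 libraries were made from sorted cells with a stranded total RNA kit for low input. Per the labels and the study's methods, the authors used Trim Galore for trimming, FastQC for quality checks, HISAT2 for alignment to mm10 and featureCounts for counting, and deposited raw counts per gene without normalization. Tool versions, the annotation, the strand setting and the handling of multiply matching reads are not given in the sources used here, so antisense, overlapping and near-identical genes are uncertain. Of 24421 gene symbols, 14594 had a count in the 6 libraries. A combined table held the same counts and was not used.

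From the deposited counts, edgeR 4.0.16 (R 4.3.3) gave TMM-scaled CPM and the quasi-likelihood test. filterByExpr (minimum count 10, minimum total 15) kept 10550 genes. The fit had 6 groups without a replicate block, the prior count was 2 and adjustment was by Benjamini-Hochberg within each comparison. The study names DESeq2, which served as an alternative (1.42.0), as did voom of limma 3.58.1 and svaseq of sva 3.50.0. The fit was also run on data simulated from its own means and spread, which cannot show a misfit or an outlying library. No 2 replicates held counts within sampling noise (lowest chi-square per gene 3.42). Library totals were 245903 to 985186 in the 6 libraries.

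Named genes were the 12 largest and 12 smallest called changes whose log2 CPM averaged 3 or more and whose groups were apart, members of the lists that passed, all IgG Fc receptors, the 5 lowest p-values of each interaction, markers at 32 CPM or more and genes the study names. Not all of them are described, and some results are not reported here. The members and lists were chosen with earlier results of these data known. Coordinates and promoter windows are RefSeq's for GRCm38.p6, matched by symbol.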

Additional observations from a re-analysis of the deposited data

Results flagged for a closer look

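Akap11, which encodes an anchoring protein of protein kinase A, was the 1 gene whose response to IC differed between MHCII+CD11c- and MHCII+CD11c+ macrophages in the interaction test. It was at 26.7, 29.3 and 23.5 CPM in untreated and 75.8, 52.7 and 56.1 CPM in IC libraries of MHCII+CD11c- macrophages (log2 fold change 1.21, SE 0.30, adjusted p = 0.0426), and all IC libraries lay above the untreated ones. In MHCII+CD11c+ macrophages it fell from 64.2 ± 7.61 to 30.2 ± 7.38 CPM (SD, n = 3), a log2 fold change of -1.11 (adjusted p = 0.0475, edgeR's quasi-likelihood test). The difference of the log2 fold changes was 2.32 (SE 0.40, adjusted p = 0.045, edgeR's quasi-likelihood test). DESeq2 called 1 gene for this difference, and whether it was Akap11 is not reported here. The number of genes with such a difference was 0 without any 1 untreated MHCII+CD11c- library or IC library 1. That number was also 0 with TMMwsp factors, with voom, with thinned libraries, with a block for the replicate number and without Rn45s. The rise within MHCII+CD11c- macrophages was called only without IC library 2 (adjusted p = 0.0567 to 0.126 in the other 5 fits that left out 1 library, and 0.0139 to 0.337 over all alternatives).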

How the results depend on the processing

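All 112 called genes kept their direction wherever they could be fitted. For the 110 whose groups did not overlap, leaving out libraries could hardly have turned it. Counts stayed within 1.5 times of 112 with DESeq2's size factors or TMMwsp factors in edgeR, a minimum of 10 counts per library, libraries thinned to the smallest total, or without Rn45s, which was chosen after seeing the data. A similar count did not always mean the same genes. The thinned fit called 92 genes, 61 of the 112 among them, and could fit 98 of the 112. The minimum of 10 counts kept 65 of the 112, and all 65 were called. With DESeq2's size factors 108 of the 112 were called, and with TMMwsp factors or without Rn45s all 112. DESeq2's Wald test called 268 genes (141 higher, 127 lower) and no filter on low counts 337 (154 higher, 183 lower). A surrogate variable from svaseq gave 202 (115 lower), voom with sample quality weights 72 (26 lower), a fit to only the 6 libraries compared 19 (14 higher, 5 lower), and the fit without both shallow IC libraries 54 (37 higher, 17 lower). Both last fits had fewer libraries, and the cause of the others was not tested. Leaving out 1 library gave 52 to 182 genes, 24 to 101 higher and 28 to 105 lower. The lowest counts came without untreated library 2 or 3 (52 and 58) or IC library 1 (64), and the highest without IC library 2 or 3 (182 and 180), the second shallow and the deep one. The difference from LYVE1+CX3CR1+ macrophages had 13 genes by DESeq2, 20 with no filter, 1 with the surrogate variable and 0 to 1 without 1 library. The difference from MHCII+CD11c+ macrophages, 1 gene, had 0 with TMMwsp factors, voom, thinning or without Rn45s, 29 with no filter and 0 to 1 without 1 library. Same-numbered IC and untreated libraries did not deviate together (r = 0.0013, 0.018 and -0.0059 over 4919 genes), so their numbers gave no pairing of IC with untreated libraries. Between same-numbered MHCII+CD11c- and MHCII+CD11c+ libraries r was 0.231, 0.109 and 0.0088 untreated and 0.0154, 0.0593 and 0.164 with IC. For other numbers it was -0.193 to 0.103. The interaction tests of the main fit held no block for this. With the replicate number as a replicate block 120 genes were called, 105 of the 112 among them, and the last difference had 0, against 2 with the pool of mice as the block. The fitted change of Fcgrt, which did not pass, turned positive with DESeq2's size factors (0.0091), DESeq2's test (0.0058), only the 6 libraries (0.0108), the replicate block (0.00059) and without untreated library 2 or IC library 3 (-0.12 to 0.11 over the 6 fits without 1 library), and that of Adgre1, which did not pass either, without both shallow libraries (0.022). In IC libraries 1 and 2 a single count stood for 2.61 and 3.77 CPM, so levels of a few CPM there rest on few counts.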
